A study of Mus musculus with 15 samples.

Results

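The genes described here are 9 immediate early and handling stress genes: Fos, Fosb, Jun, Junb, Egr1, Egr2, Ier2, Atf3 and Rhob. They were chosen by name, as the rows of the count table with these gene symbols, 1 row per Ensembl gene. All 9 were found among 40510 genes, and all 9 were among the 13284 genes that had enough counts to be tested. The samples were macrophages of the lung alveoli, recovered from naive C57BL/6 mice by lavage of the airways. Donor animals were either wild-type controls or Cybb knockouts (CGD, for chronic granulomatous disease), which lack the catalytic subunit of the phagocyte NADPH oxidase NOX2. The sort kept CD45+ cells that were Ly6G- but SiglecF+ CD11c+, separated by CD11b, the surface integrin chain encoded by Itgam. The design had 15 RNA sequencing libraries in 5 groups of 3. These were wild-type CD11b-low cells at 4 weeks and at 12 weeks of age, knockout CD11b-low cells at 4 weeks and at 12 weeks, and knockout CD11b-high cells at 12 weeks. Each library came from a pool of several mice of 1 group, and the submitters describe the replicates as independent. The labels name no vehicle, infection or other treatment, and no CD11b-high cells of wild-type mice were analysed here.

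Immediate early genes are transcribed within minutes of a signal, from factors already present in the cell, and their short-lived messages fade soon after. MAP kinases acting on serum response factor and its ELK partners, and kinases acting on CREB, are the best known routes to their promoters. Growth factors, adhesion, microbial products and cytokines induce them in macrophages, and so do tissue dissociation, washing and cell sorting, which is why the same genes are read as a sign of handling. Fos, Fosb, Jun and Junb encode subunits of the dimeric transcription factor AP-1, Egr1 and Egr2 encode zinc finger transcription factors, and Ier2 encodes a small nuclear regulator. Atf3 encodes a stress-induced factor of the ATF/CREB family that represses inflammatory genes in macrophages. Rhob encodes a small GTPase of endosomes whose message is also short-lived and inducible.

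The libraries held 22856331 to 36458893 counts, with a median of 32415469. Cybb, in TMM-scaled CPM (counts scaled to a common library size), ranged from 129 to 221 over the 9 knockout libraries and from 899 to 2319 over the 6 wild-type ones. Itgam was at 30.7 to 88.4 CPM in the CD11b-high libraries and at 0.805 to 6.27 in the others, and no library went against its label. The 12 alveolar macrophage markers were all detected, at a summed 36680 to 65070 CPM. Among markers of other cells, Ly6g of neutrophils and Epx of eosinophils had 0 counts in all 15 libraries.

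The sequences just before the start sites were searched for a few short motifs. RefSeq promoter windows on GRCm38.p6 were at hand for 7 of the 9 genes. Egr2 had 5 windows, of which the 1 nearest to the annotated start of its principal transcript is used, and the other 6 genes had 1 each. In these 250 bases before the start, on both strands, 6 motifs were searched: TGACG (the core of the CREB and ATF site), TGANTCA (the AP-1 site), TGACATCA (the Jun-type variant), GCGNGGGCG (the EGR site), TATAAA and the CArG box of serum response factor. The matches did not overlap each other. The last 150 bases before each start are printed 5′ to 3′ on the gene's strand, with the motif matches in capitals. They lie at chr12:85473740-85473889 (+ strand) for Fos, chr7:19310046-19310195 (- strand) for Fosb, chr4:95052223-95052372 (- strand) for Jun, chr8:84978749-84978898 (- strand) for Junb, chr10:67537719-67537868 (+ strand) for Egr2, chr1:191183334-191183483 (- strand) for Atf3 and chr12:8500010-8500159 (- strand) for Rhob.
Fos: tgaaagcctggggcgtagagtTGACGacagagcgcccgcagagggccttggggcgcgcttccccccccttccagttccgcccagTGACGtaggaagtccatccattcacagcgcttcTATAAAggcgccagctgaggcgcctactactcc
Fosb: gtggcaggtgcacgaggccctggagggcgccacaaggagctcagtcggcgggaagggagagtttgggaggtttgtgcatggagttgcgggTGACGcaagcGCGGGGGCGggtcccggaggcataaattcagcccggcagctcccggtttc
Jun: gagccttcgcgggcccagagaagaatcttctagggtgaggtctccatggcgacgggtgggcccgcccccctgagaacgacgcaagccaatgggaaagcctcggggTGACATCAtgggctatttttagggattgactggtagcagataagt
Junb: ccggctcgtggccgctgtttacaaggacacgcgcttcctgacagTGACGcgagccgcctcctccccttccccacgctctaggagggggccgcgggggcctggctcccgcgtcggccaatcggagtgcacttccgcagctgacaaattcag
Egr2: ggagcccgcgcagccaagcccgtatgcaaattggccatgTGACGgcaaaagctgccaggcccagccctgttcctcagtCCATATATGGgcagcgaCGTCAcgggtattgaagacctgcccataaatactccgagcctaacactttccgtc
Atf3: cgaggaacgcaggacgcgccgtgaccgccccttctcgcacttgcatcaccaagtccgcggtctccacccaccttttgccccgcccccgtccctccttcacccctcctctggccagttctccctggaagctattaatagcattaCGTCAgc
Rhob: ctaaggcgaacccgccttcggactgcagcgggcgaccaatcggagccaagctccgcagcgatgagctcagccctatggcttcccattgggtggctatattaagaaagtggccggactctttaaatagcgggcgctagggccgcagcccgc
The core TGACG was found before 5 of the 7 genes (Fos, Fosb, Junb, Egr2 and Atf3), against 17.8% of the 32851 windows in the RefSeq table. Fos had 2 such matches and a TATAAA, a motif of 12.4% of windows. Egr2 had 2 such cores and the CArG box, which 1.47% of windows hold. Of its 5 windows, 3 held the core and 4 the CArG box. The shares count every window of every gene. Fosb also had the EGR site (4.7% of windows), and Jun had the variant TGACATCA (2.93%). TGANTCA, in 6.75% of windows, was in none of the 7, and Rhob had none of the 6 motifs. How many of all windows have none of the 6 was not counted, so this does not set Rhob apart. These matches are letters in a short window and were not measured as binding sites. Bases further upstream were not searched, so a gene without a match here, such as Fos for the CArG box, may have the motif there.

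Most of these genes are compact. In GENCODE M21, on GRCm38, the principal transcripts of Jun, Junb, Ier2 and Rhob have 0 introns, Egr1 and Egr2 have 1, and Fos, Fosb and Atf3 have 3. Jun shares 232 exonic bases with the antisense gene Junos, and Junb shares 173 with Prdx2 on the opposite strand. The strand setting of the counting is not given in the sources used here, so reads of Junos or Prdx2 could be counted in these rows or left out. The other 7 genes share no exonic base with another gene.

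Fos was by far the most abundant message of the 9. Divided by exon length, its level was 213 CPM per kb in the median library (91.6 to 678 over the 15 libraries), which ranked it between the 63rd and the 617th of 13274 genes. The median gene stood at 1.94 CPM per kb. Egr2 followed with a median of 25.3 CPM per kb, then Atf3 with 14.2 and Rhob with 9.14. Ier2 (4.84), Egr1 (4.25), Jun (3.38) and Junb (2.68) were lower, and Fosb, at 1.81 CPM per kb, stood just under the median gene. All 9 genes together took 0.0305 to 0.22% of a library's counts, and Fos made up 51.5 to 86.7% of that share. Over the 15 libraries the level of Egr1 varied most, 45.6-fold between the lowest and the highest library, and that of Egr2 least, 3.19-fold.

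Fos, the partner that pairs with Jun proteins in AP-1, was measured at 4 weeks at 1594, 1401 and 355 CPM in wild-type replicates 1, 2 and 3 and at 884, 1204 and 1107 CPM in the knockout. At 12 weeks it was at 331, 500 and 1270 CPM in wild-type cells, at 285, 370 and 551 in knockout CD11b-low cells and at 216, 241 and 415 in knockout CD11b-high cells. The group means fell in the order 1116, 1065, 701, 402 and 291 CPM, for wild-type and knockout cells at 4 weeks and then wild-type, knockout CD11b-low and knockout CD11b-high cells at 12 weeks. Each group overlapped its neighbour in that order. In wild-type cells 1 library at each age lay far from the other 2, low at 4 weeks and high at 12 weeks. Fosb, its close relative, was at 46.7, 38.8 and 2.69 CPM in wild-type cells at 4 weeks and at 28.6, 21.6 and 20 in the knockout. At 12 weeks Fosb was at 30.8, 8.15 and 18.5 CPM in wild-type cells, at 10.2, 3.28 and 8.55 in knockout CD11b-low cells and at 8.8, 3.19 and 11.3 in CD11b-high cells. The lowest library of all 15 for Fosb was wild-type replicate 3 at 4 weeks, which was not so for Fos.

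Jun, the best studied AP-1 subunit, was at 35.1, 24.5 and 6.32 CPM in wild-type cells at 4 weeks and at 15.4, 10.8 and 9.02 in the knockout. At 12 weeks Jun was at 20.9, 8.47 and 28.4 CPM in wild-type cells, at 5.16, 5.13 and 13.8 in knockout CD11b-low cells and at 5.95, 7.27 and 17.1 in CD11b-high cells. Junb, an AP-1 subunit with weaker activating power than Jun, was at 18.4, 10.7 and 1.81 CPM in wild-type cells at 4 weeks and at 6.16, 6.23 and 5.12 in the knockout. The 3 knockout libraries of that age were close together, while the wild-type libraries around them differed 10.2-fold. At 12 weeks Junb was at 11.9, 4.58 and 12.3 CPM in wild-type cells, at 5.92, 2.5 and 11.2 in knockout CD11b-low cells and at 5.1, 3.52 and 17.8 in CD11b-high cells. Replicate 3 was the highest library of each 12-week group for both Jun and Junb.

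**Figure D1:**
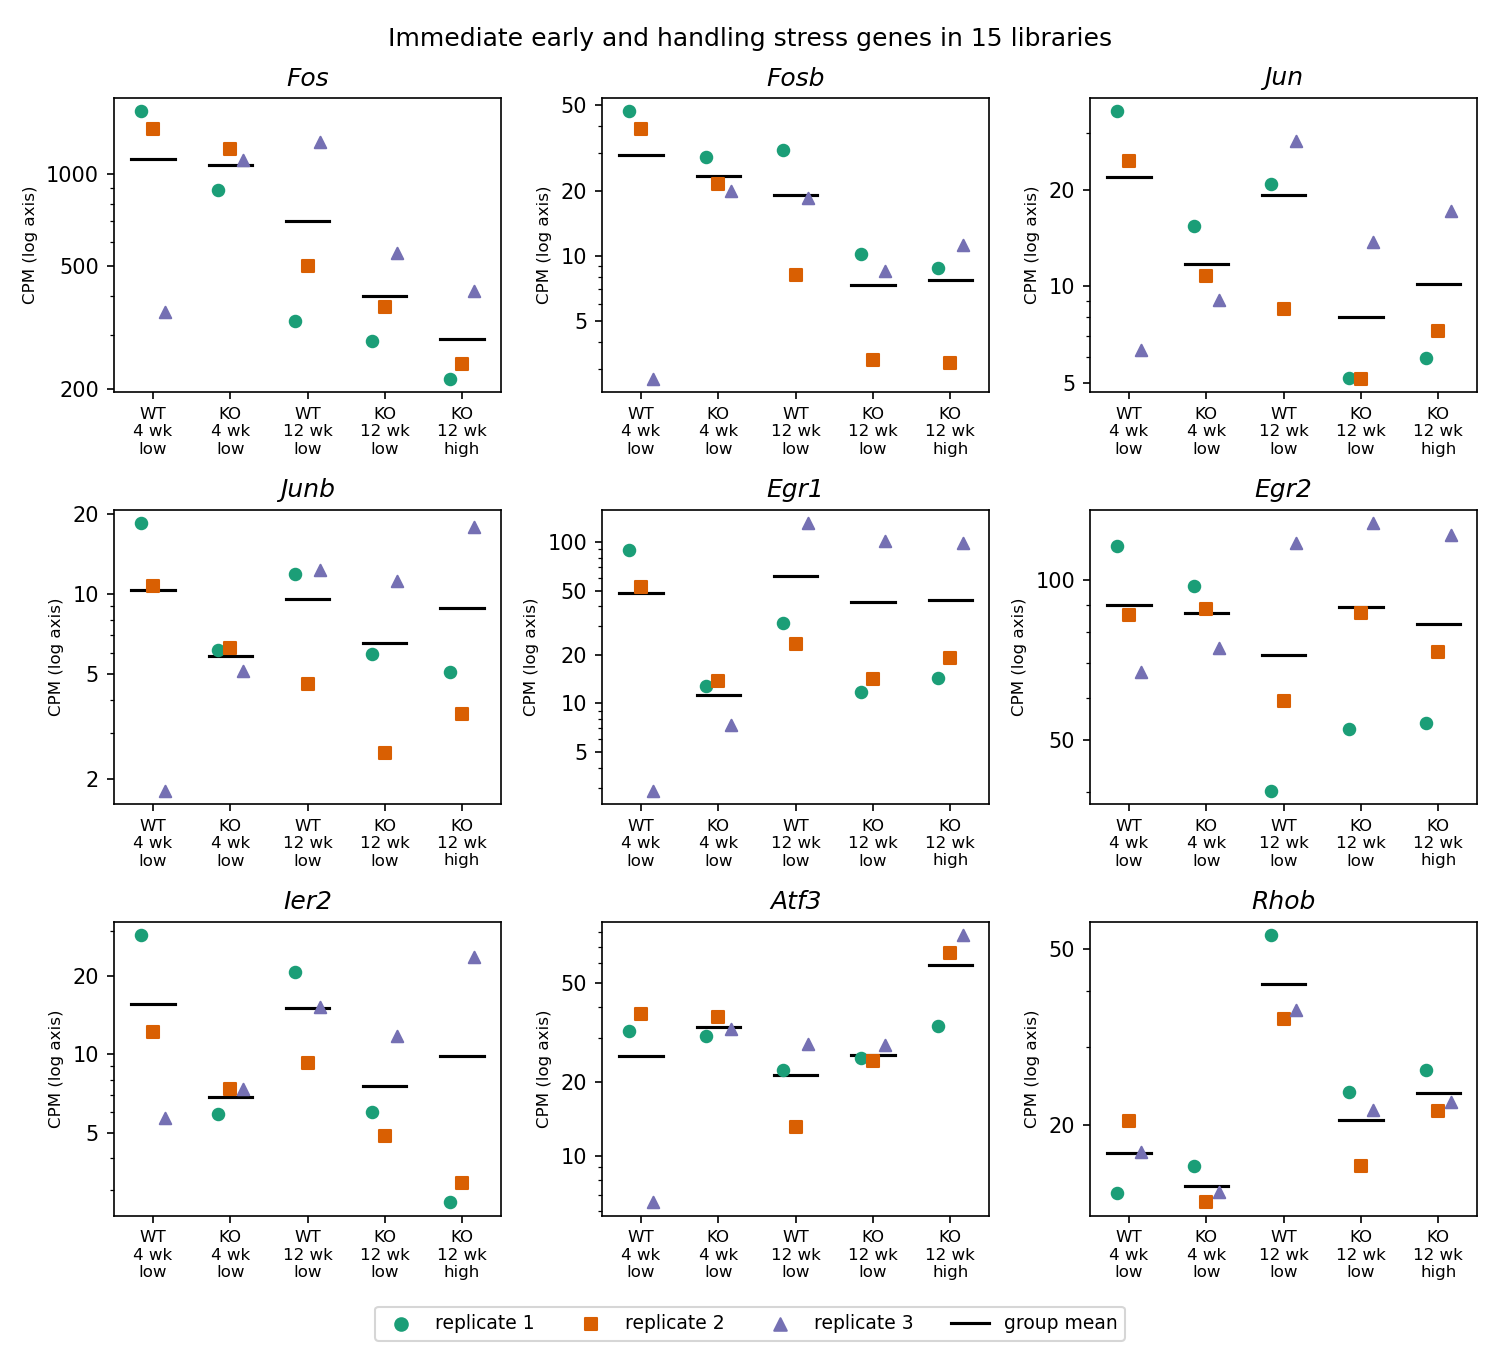
Level of each of the 9 genes (CPM, log axis) in 15 libraries, by group (WT, wild-type; KO, Cybb knockout; wk, weeks; low and high, CD11b-low and CD11b-high); colours and symbols give the replicate number and black lines the group mean. Wild-type replicate 3 at 4 weeks is the lowest of its group for 8 genes, while Rhob sits between 34.6 and 53.7 CPM in the wild-type libraries of 12 weeks and below them in all others.

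Egr1, an early growth response factor that SRF switches on together with Fos, had the widest swings. It was at 89.2, 52.6 and 2.87 CPM in wild-type cells at 4 weeks and at 12.8, 13.8 and 7.32 in the knockout. At 12 weeks Egr1 was at 31.4, 23.2 and 131 CPM in wild-type cells, at 11.7, 14.1 and 101.1 in knockout CD11b-low cells and at 14.4, 19.1 and 98.6 in CD11b-high cells. Replicate 3 of each 12-week group thus stood at least 98.6 CPM, above every other library of the series. Egr2, its relative with a role in macrophage maturation, was steadier. It was at 116, 86.1 and 67.3 CPM in wild-type cells at 4 weeks and at 97.7, 88.3 and 74.6 in the knockout. At 12 weeks Egr2 was at 40.2, 59.2 and 117 CPM in wild-type cells, at 52.6, 87 and 128 in knockout CD11b-low cells and at 54, 73.3 and 122 in CD11b-high cells. The 5 group means of Egr2 lay between 72.3 and 89.7 CPM and their libraries all overlapped.

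Ier2, a growth factor-inducible regulator of transcription, was at 28.9, 12.3 and 5.68 CPM in wild-type cells at 4 weeks and at 5.92, 7.36 and 7.34 in the knockout. At 12 weeks Ier2 was at 20.7, 9.26 and 15.2 CPM in wild-type cells, at 6.01, 4.83 and 11.8 in knockout CD11b-low cells and at 2.69, 3.19 and 23.6 in CD11b-high cells. Replicate 3 of the CD11b-high cells was 8.79 times the lowest library of that group.

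Atf3 behaved like the others in wild-type cells at 4 weeks (31.9, 37.6 and 6.5 CPM) and was at 30.6, 36.5 and 32.8 CPM in the knockout. At 12 weeks it was at 22.3, 13.1 and 28.2 CPM in wild-type cells, at 25, 24.1 and 28.1 in knockout CD11b-low cells and at 33.4, 66.2 and 78.2 in CD11b-high cells. All 3 CD11b-high libraries stood above all 6 CD11b-low libraries of that age. Rhob had another profile. It was at 14, 20.4 and 17.4 CPM in wild-type cells at 4 weeks, at 16.1, 13.3 and 14.1 in the knockout, and at 53.7, 34.6 and 36.3 in wild-type cells at 12 weeks. Knockout cells of 12 weeks held 23.7, 16.1 and 21.6 CPM of Rhob when CD11b-low and 26.5, 21.5 and 22.6 when CD11b-high. The 3 wild-type libraries of 12 weeks were above the other 12.

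Of these genes 8 varied between replicates of 1 group far more than most genes did, which limits what any comparison of groups can show for them. On the log2 scale of CPM plus 0.5, with 10 degrees of freedom, the within-group SD of the median tested gene was 0.36. That of Egr1 was 1.64, larger than in 99.9% of tested genes, and that of Fosb was 1.19 (99.7%), of Junb 1.04 (99.5%), of Ier2 0.965 (99.2%) and of Jun 0.858 (98.6%). Fos (0.769, 97.6%), Atf3 (0.717, 96.7%) and Egr2 (0.557, 88.7%) followed, while Rhob, at 0.249, varied less than most, with 15.7% of genes below it. Against the 500 genes nearest to each in level the shares were similar, at 92 to 100% for those 8 and 19.2% for Rhob. Counting error is small beside this, since the lowest count of any of the 9 genes in any library was 60.

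**Figure D2:**
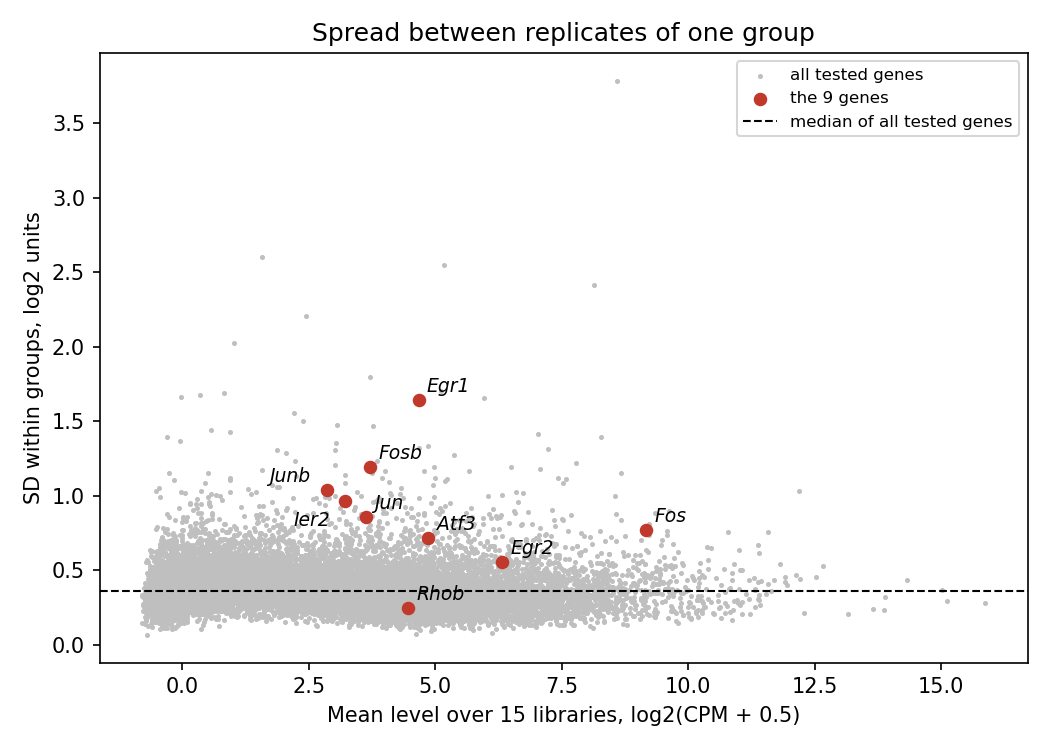
Within-group SD (log2 units) against mean level over 15 libraries (log2 of CPM plus 0.5) for 13284 tested genes (grey) and the 9 genes (red); the dashed line is the median of all tested genes, 0.36. Egr1 lies at 1.64 and Rhob, at 0.249, is the single one of the 9 below the line.

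The spread was shared between genes within a library. In wild-type cells at 4 weeks replicate 3 had the lowest level of 8 of the 9 genes (all but Rhob), where 37.2% of all tested genes were lowest in that library. The median of the 9 genes there was -1.42 on the log2 scale from the group mean, against -0.0026 for all tested genes. That library had 30158292 counts, between the other 2 of its group. Its mitochondrial share was 1.17% against 0.738 and 0.788%, its Cybb level 2319 CPM against 1531 and 1534, its summed erythroid markers 1810 CPM against 2319 and 8304, and its epithelial markers 40.9 CPM against 15.8 and 27.4. The part of these differences in the low values was not tested.

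At 12 weeks replicate 3 was high instead. It was the highest library for 8 of the 9 genes in CD11b-high knockout cells, for 7 in CD11b-low knockout cells and for 6 in wild-type cells, where 29.9, 33.4 and 24.9% of all tested genes were highest in that library. Fos, Jun, Junb, Egr1, Egr2 and Atf3 were highest in replicate 3 of all 3 groups, which held for 2.82% of tested genes. The labels do not say what a replicate number stands for. These 3 libraries had 32704234, 36367786 and 23445956 counts and mitochondrial shares of 0.914, 0.801 and 1.26%, the highest of their group in the knockout but not in wild-type cells. The part of depth or mitochondrial share was not tested.

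**Figure D3:**
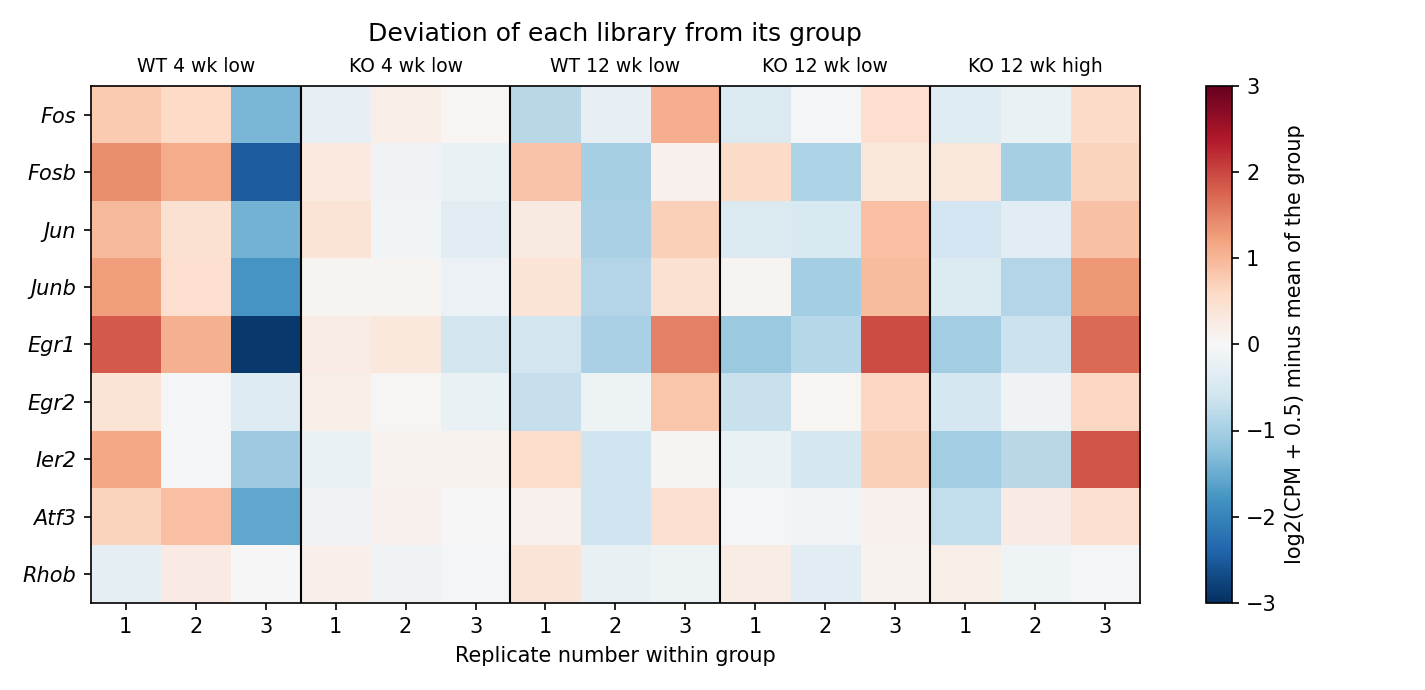
Deviation of each library from the mean of its group, in log2(CPM + 0.5), for the 9 genes (rows) in 15 libraries (columns, by group and replicate number); red is above and blue below the group mean. Wild-type replicate 3 at 4 weeks is blue for the 8 genes other than Rhob, and replicate 3 of the 3 groups of 12 weeks is red for the 8 genes other than Rhob.

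The genes that varied together can be named from their deviations from the group means over the 15 libraries, which share library preparation and depth within each point. Of the 28 pairs among the 8 genes other than Rhob, 26 had a correlation r above 0.5, with a median of 0.779. The closest pairs were Jun and Egr1 (r = 0.949), Jun and Junb (0.927) and Fos and Egr1 (0.903), and the loosest was Fosb and Egr2 (0.203). Without centring on groups, Fos and Egr1 had r = 0.351, since the means of their groups were ordered differently. The 8 pairs with Rhob ran from -0.503 with Egr2 to 0.356 with Fosb.

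Other genes of the same response spread in the same libraries to differing degrees. Of 30 feedback regulators and effectors tested (messages such as Zfp36 and Dusp1 that end the response), 20 were lowest in wild-type replicate 3 at 4 weeks, and 20, 19 and 15 were highest in replicate 3 of the CD11b-high, CD11b-low knockout and wild-type groups of 12 weeks. Their median within-group SD was 0.597, and 23 of 30 were above the median of all genes. Of 13 other immediate early transcription factors, 9 were lowest in that 4-week library, and their median SD was 0.455. Heat shock proteins and chaperones did not share the order, with 5 of 11 lowest and 5 of 11 highest in the same library (median SD 0.419). The 15 kinases and factors upstream of immediate early genes were steadier than most genes (median SD 0.243, with 2 of 15 above the median of all genes), and 9 of them were highest in that library.

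Knockout and wild-type CD11b-low cells of 12 weeks, compared to ask what loss of NOX2 does in adult mice, differed in 1 of the 9 genes. Rhob fell in the knockout to 20.5 ± 3.91 CPM from 41.5 ± 10.6 (SD, n = 3 each), a log2 change of -1.02 (SE 0.239), with an adjusted p of 0.0262 in edgeR's quasi-likelihood test over all genes. The 2 groups did not overlap, and 7.99% of tested genes were likewise lower in the knockout without overlap. In this comparison 3.1% of tested genes were called, and 0.497% were called lower, and a count of 1 of 9 is too small to compare with these shares. In bulk RNA, fewer cells of a type that express a gene and less of its RNA per cell cannot be told apart.

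The other 8 genes did not pass. Their log2 differences were -0.80 for Fos, -1.38 for Fosb, -1.26 for Jun, -0.55 for Junb, -0.55 for Egr1, 0.30 for Egr2, -1 for Ier2 and 0.28 for Atf3, with SEs from 0.386 to 1.16. Jun came closest, with an unadjusted p of 0.0479 and an adjusted p of 0.239 in edgeR. The 95% interval of Egr1 ran from -3.07 to 1.98 and so held changes of over 2-fold in either direction. The median over the 9 was -0.80, against -0.04 over all tested genes. None of the 77 tested genes of the 5 surrounding lists was called: 13 other immediate early transcription factors, 30 feedback regulators and effectors, 11 heat shock proteins, 8 genes of the integrated stress response and 15 upstream kinases and factors. The feedback list had a median of -0.37 and 9 of 30 positive differences.

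Several marker lists moved with the same 2 groups. T and NK cell markers (9 of 10 tested) summed to 39.1 to 107.1 CPM in knockout and to 2.52 to 6.13 CPM in wild-type libraries. Eosinophil markers (2 of 5 tested, Epx at 0) were at 123 to 617 against 10 to 17.1 CPM, erythroid markers (5 of 5) at 67.9 to 123 against 493 to 1355, and epithelial markers (5 of 5) at 14.8 to 30.7 against 55.7 to 118.9. That eosinophil sum was nearly all Ear6, at 123 to 617 against 10 to 17.1 CPM. Prg2 was at most at 0.687 CPM and Ccr3 at most at 0.137. Neutrophil markers (6 of 10 tested, Ly6g at 0) were at 84.8 to 150.9 against 54.9 to 76.4 CPM, and B cell markers (5 of 5) at 1.93 to 14.3 against 0.584 to 1.38. The mitochondrial share was 0.505 to 0.801% against 1.13 to 1.29%. Among alveolar macrophage markers, Ear1 was lower in the knockout without overlap (366 to 379 against 678 to 1530 CPM). So was Ear2 (1460 to 1650 against 2930 to 5400), while Car4 was higher (2060 to 3490 against 1300 to 1980). The other genes of that list overlapped. The part of these markers and of the mitochondrial share in the lower Rhob was not tested. The call was lost without knockout replicate 2 (log2 -0.89, adjusted p 0.135), without knockout replicate 3 (-1.06, 0.0574), without wild-type replicate 1 (-0.79, 0.0723) and with only these 6 libraries in the fit (adjusted p 0.263).

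At 4 weeks none of the 9 genes was called between knockout and wild-type CD11b-low cells in edgeR, and none had an unadjusted p under 0.05. DESeq2 and limma voom called none either. Few genes were called at all in this comparison (0.0979% of those tested), for which 7% of simulated 2-fold changes were recovered. The largest difference of the 9 was that of Egr1, at 11.3 ± 3.5 CPM in the knockout and 48.2 ± 43.4 in wild-type cells (log2 -2.09, SE 1.21, 95% interval -4.72 to 0.54), and its groups overlapped because of wild-type replicate 3. Fos, at 1065 ± 164 and 1116 ± 666 CPM, differed by -0.07 (95% interval -1.12 to 0.98). Rhob differed by -0.25 (-0.75 to 0.25), an interval that leaves out the 2-fold difference seen at 12 weeks. Without wild-type replicate 3, edgeR gave log2 differences of -2.65 for Egr1, -1.34 for Jun, -1.58 for Ier2 and -1.32 for Junb, and called none of the 9. Atf3 then went from 0.39 to -0.06. That library was singled out by its low values of these same genes, so leaving it out is no test of a difference.

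Whether the genotype difference itself changed with age was tested as an interaction. None of the 9 genes passed in edgeR (0.248% of tested genes did), DESeq2 and limma voom called none, and 1 had an unadjusted p under 0.05 in edgeR. This was Rhob, whose knockout minus wild-type difference was lower at 12 than at 4 weeks by 0.77 on the log2 scale (SE 0.336, unadjusted p 0.0343, adjusted p 0.547). So the lower Rhob of knockout cells at 12 weeks was not shown to differ from the difference at 4 weeks. The interaction of Egr1 was 1.54 with an SE of 1.65.

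CD11b-high and CD11b-low knockout cells of 12 weeks were compared to describe the CD11b-high subset. None of the 9 genes passed in edgeR, where 0.693% of tested genes were called. In the fit without a replicate block 1 had an unadjusted p under 0.05: Atf3, at 59.3 ± 23.2 CPM in CD11b-high and 25.7 ± 2.08 in CD11b-low cells (log2 1.21, SE 0.455, unadjusted p 0.0167, adjusted p 0.324). It was the single gene of the 9 whose CD11b-high libraries all lay above the CD11b-low ones, as did 7.91% of tested genes. DESeq2 (adjusted p 0.177 for Atf3) and limma voom (0.517) called none of the 9. As an alternative the replicate numbers were taken to pair the samples, a pairing that the data bear out only weakly for replicate 3 (the check is with the processing). With the number as a block in these 6 libraries alone, Atf3 had a log2 difference of 1.14 and an adjusted p of 0.0506 in edgeR. That fit called 252 genes. Without the block, edgeR on the same 6 libraries called 18 genes and gave Atf3 1.22 (adjusted p 0.165), and the fit of all 15 libraries called 92. In that blocked fit Fos had a log2 difference of -0.46, an unadjusted p of 0.0253 and an adjusted p of 0.242 in edgeR. Between the subsets neutrophil markers were at 328 to 471 CPM in CD11b-high and 84.8 to 150.9 in CD11b-low cells, and dendritic cell markers at 23.3 to 148 and 3.03 to 18.8. Their part in the level of Atf3 was not tested.

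The AP-1 genes did not pass between the CD11b subsets, with log2 differences of -0.47 for Fos (95% interval -1.52 to 0.58), 0.09 for Fosb, 0.34 for Jun and 0.44 for Junb. Rhob, the most precise of the 9, differed by 0.20 (-0.30 to 0.70), an interval that leaves out a 2-fold difference. None of the 77 genes of these lists passed. Those of the integrated stress response, to which Atf3 belongs, had a median of 0.50 with 6 of 8 positive, and the feedback regulators had a median of 0.29 with 22 of 30 positive.

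Set against wild-type CD11b-low cells of 12 weeks, the CD11b-high knockout cells differed in genotype and in CD11b at once, and these cannot be told apart here. Atf3 rose to 59.3 ± 23.2 from 21.2 ± 7.64 CPM (log2 1.49, SE 0.459, adjusted p 0.0386), and Rhob fell to 23.5 ± 2.67 from 41.5 ± 10.6 (log2 -0.82, SE 0.238, adjusted p 0.029), both by edgeR. Neither gene's groups overlapped, where 15.6% of tested genes were higher and 10.8% lower without overlap. As 14.8% of all tested genes were called here, 9.23% higher and 5.6% lower, 1 of 9 in each direction is near that background. Fos, at 291 ± 108 against 701 ± 500 CPM, had a log2 difference of -1.27 with an unadjusted p of 0.0221 and an adjusted p of 0.1 in edgeR. This comparison shares its wild-type libraries with the genotype comparison of 12 weeks and its knockout libraries with that of the CD11b subsets.

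Among the CD11b-high libraries 6 of the 9 genes, with Atf3 among them, were lowest in replicate 1, as were 35.6% of tested genes. The sums of monocyte (8 of 8 tested), neutrophil and dendritic cell markers were also lowest there, while those of eosinophil and erythroid markers were highest. The monocyte sums were 18.1, 141.7 and 152 CPM in replicates 1, 2 and 3 against 15.2 to 32.2 in wild-type libraries. Neutrophil markers (6 of 10 tested, Ly6g at 0) were at 328 to 471 against 54.9 to 76.4 CPM, eosinophil markers at 299 to 998.8 against 10 to 17.1, and dendritic cell markers (6 of 6) at 23.3 to 148 against 6.96 to 7.89. The eosinophil sum was nearly all Ear6, at 287 to 999 CPM in CD11b-high libraries. Prg2 was there at 0 to 8.14 CPM and Ccr3 at 0.102 to 4.46. T and NK cell markers were at 28.6 to 79.4 against 2.52 to 6.13 CPM and B cell markers at 1.93 to 6.69 against 0.584 to 1.38. Erythroid markers were lower, at 49.5 to 150.7 against 493 to 1355 CPM, as were epithelial markers, at 26.8 to 37.6 against 55.7 to 118.9, and the mitochondrial share, at 0.763 to 0.914% against 1.13 to 1.29%. Among alveolar macrophage markers, Ear1 (174 to 206 against 678 to 1530 CPM), Ear2, Siglecf and Cidec were lower without overlap. Chil3 was higher (39200 to 58100 against 24100 to 38600), and the other genes of that list overlapped. The part of these markers and of the mitochondrial share in the levels of Atf3 and Rhob was not tested. The call for Atf3 was lost without CD11b-high replicate 2 (adjusted p 0.115) or 3 (0.124), without wild-type replicate 1 (0.0999) or 2 (0.131), with limma voom (0.0832), with the replicate number as a block over all 15 libraries (0.0558) and with only these 6 libraries in the fit (0.0526). Without CD11b-high replicate 3 Ier2 was called lower instead (log2 -2.36, adjusted p 0.0166, against -0.60 and 0.609 with it). The call for Rhob was lost without CD11b-high replicate 2 (0.116) or 3 (0.079), without wild-type replicate 1 (0.0748; log2 -0.60) and with only these 6 libraries (0.158).

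Around them, related genes changed in both directions in CD11b-high cells. Of 30 feedback regulators and effectors 5 rose and 3 fell. Rgs1, which dampens chemokine receptor signalling, rose to 659 ± 75.5 from 94.4 ± 36.8 CPM (adjusted p 0.0106). The growth arrest gene Gadd45a (4.05 ± 0.683 from 0.589 ± 0.307 CPM) and the kinase gene Plk2 (12.1 ± 5.92 from 2.59 ± 0.545) also rose. Ptgs2, the inducible cyclooxygenase, rose at a very low level (2.2 ± 1.61 from 0.0895 ± 0.122 CPM). Of 13 other immediate early transcription factors 1 rose, the orphan nuclear receptor gene Nr4a3 (3.71 ± 3.33 from 0.301 ± 0.282 CPM), and 3 fell. Those were Nfil3, at 12.4 ± 2.52 from 33.3 ± 10.3 CPM, Klf4, at 27.5 ± 9.06 from 64.4 ± 30.8, and Klf2, at 5.37 ± 1.21 from 13.4 ± 3.02.

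Of 8 genes of the integrated stress response 2 rose and 1 fell. Asns for asparagine synthetase rose to 52 ± 15 from 12.8 ± 8.79 CPM. Trib3 rose to 5.08 ± 2.435 from 1.68 ± 0.838 CPM, and both are known targets of ATF4. Sesn2 fell to 9.29 ± 0.996 from 15.2 ± 3.27 CPM. The ERK1 kinase gene Mapk3 fell to 121 ± 21 from 214 ± 25.5 CPM, the single one of 15 upstream genes called. None of 11 heat shock proteins and chaperones was called.

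**Figure D4:**
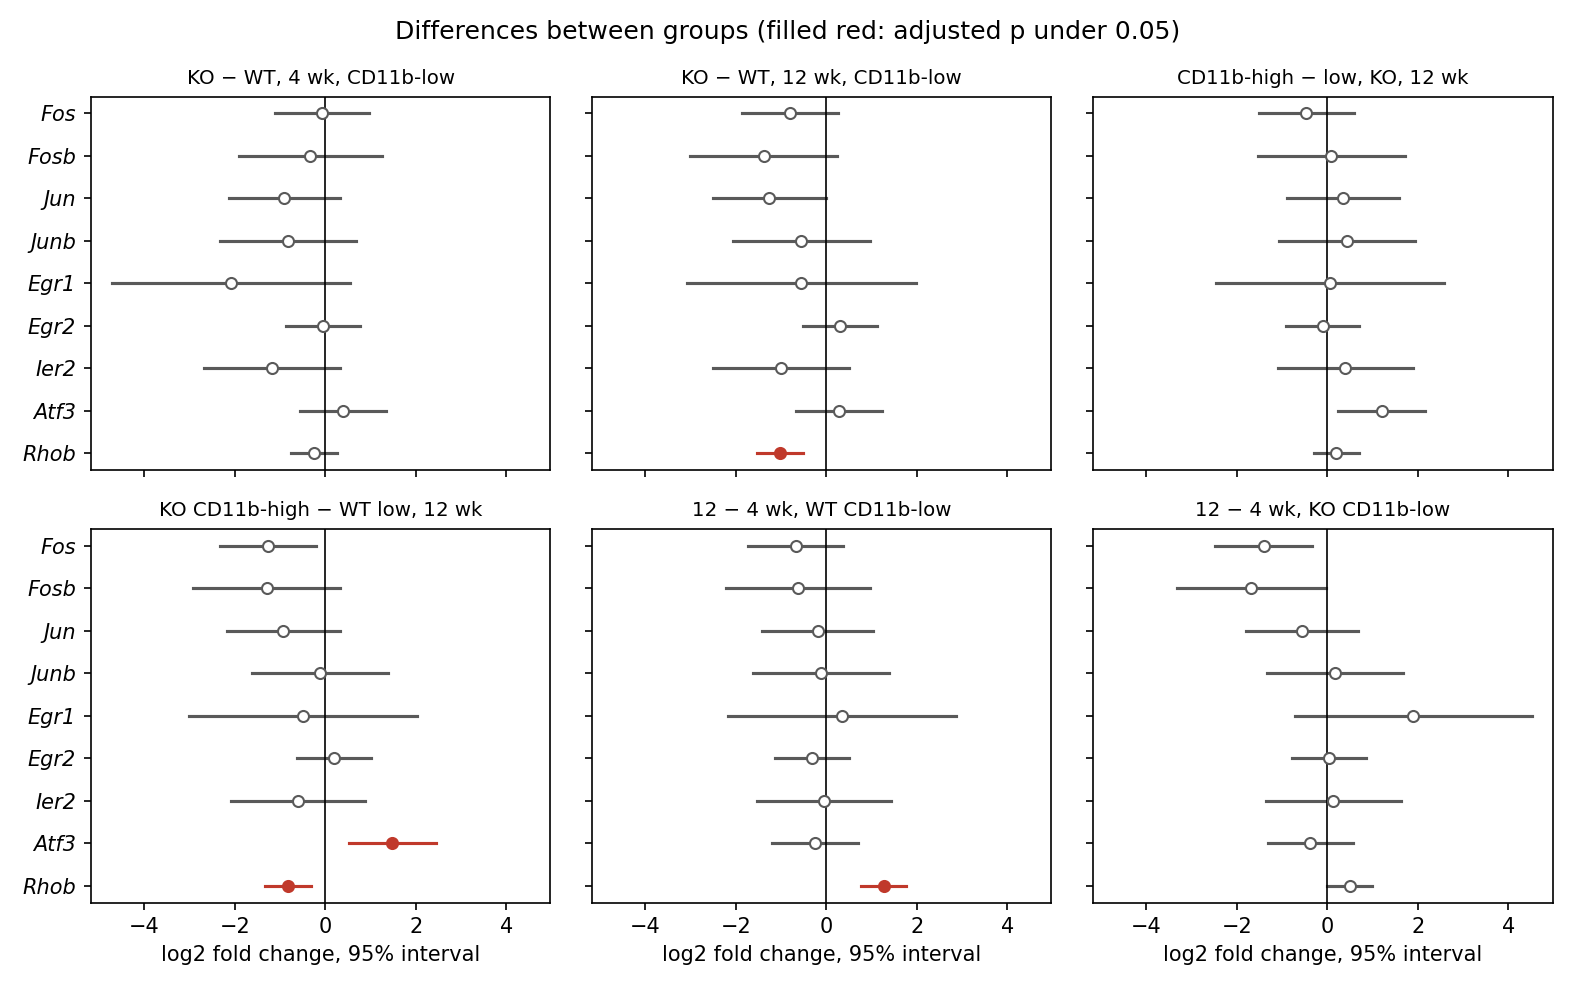
Log2 fold changes of the 9 genes in 6 comparisons (points, with 95% intervals from edgeR; filled red where the adjusted p is under 0.05). Red are Rhob at -1.02 and -0.82 in the 2 comparisons with wild-type cells of 12 weeks and at 1.27 with age in wild-type cells, and Atf3 at 1.49 in CD11b-high knockout against wild-type cells.

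With age, wild-type CD11b-low cells gained Rhob. It rose to 41.5 ± 10.6 CPM at 12 weeks from 17.3 ± 3.18 at 4 weeks, a log2 change of 1.27 (SE 0.24) with an adjusted p of 0.00445 in edgeR. Every 12-week library was above every 4-week library, as was so for 15.6% of tested genes. The call was kept in all 12 alternatives (log2 from 1.01 to 1.40, adjusted p from 7.62e-06 to 0.0307). Calls were frequent with age in wild-type cells, at 17.2% of tested genes and 8.79% higher, so 1 of 9 is near that background. Epithelial markers were also higher at 12 weeks, at 55.7 to 118.9 against 15.8 to 40.9 CPM, erythroid markers lower, at 493 to 1355 against 1810 to 8304, and the mitochondrial share was 1.13 to 1.29% against 0.738 to 1.17%. Dendritic cell markers were higher, at 6.96 to 7.89 against 3.29 to 4.94 CPM. Eosinophil markers, nearly all Ear6 (10 to 17.1 against 19.6 to 29.4), and B cell markers (0.584 to 1.38 against 1.5 to 3.59) were lower. Among alveolar macrophage markers, Ear1 (678 to 1530 against 441 to 489 CPM), Ear2 and Fabp4 were higher without overlap. Marco (212 to 299 against 337 to 525) and Siglecf were lower, and the other genes of that list overlapped. The part of these markers and of the mitochondrial share in the rise of Rhob was not tested.

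None of the other 8 genes passed with age in wild-type cells, with log2 differences from -0.67 (Fos) to 0.36 (Egr1). Without wild-type replicate 3 of 4 weeks, edgeR gave Fos -1.10 (adjusted p 0.135), Fosb -1.16 (0.176) and Atf3 -0.71 (0.196). Egr1 then turned from 0.36 to -0.20, and Rhob kept 1.27. That library was singled out by its low values of the genes other than Rhob, so leaving it out is no test of them. Among related genes the stress factor genes Ddit3 (34.9 from 14.6 CPM) and Nupr1 (373 from 170) rose, 2 of 8, and so did the mitochondrial chaperone gene Hspe1 (107 from 50.02) and Rgs2 (192 from 113), a regulator of G protein signalling. Of 13 other immediate early transcription factors Klf2 (13.4 from 5.87 CPM) and Nfil3 (33.3 from 18.2) rose and Klf10 (337 from 692), a target of TGF-beta signalling, fell.

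In knockout CD11b-low cells none of the 9 genes passed with age, while 6.89% of tested genes did in edgeR. Of the 9, 2 had an unadjusted p under 0.05. Fos was at 402 ± 136 CPM at 12 weeks and 1065 ± 164 at 4 weeks (log2 -1.41, SE 0.506, unadjusted p 0.0129, adjusted p 0.0953), and Fosb was at 7.33 ± 3.6 and 23.4 ± 4.58 (log2 -1.68, SE 0.766, unadjusted p 0.0458, adjusted p 0.19), both in edgeR. DESeq2 called Fos (adjusted p 0.0428), and limma voom called none of the 9. With only these 6 libraries in the edgeR fit both were called, at adjusted p 0.0103 for Fos and 0.0205 for Fosb. T and NK cell markers were at 39.1 to 107.1 CPM at 12 weeks and 1.5 to 3.52 at 4 weeks, and B cell markers at 1.93 to 14.3 and 0.658 to 1.11. Eosinophil markers, nearly all Ear6, were at 123 to 617 and 16.4 to 39.2 CPM. The sums of neutrophil markers (84.8 to 150.9 and 71.7 to 84.2 CPM) and alveolar macrophage markers (45030 to 49760 and 38180 to 41340) were also higher at 12 weeks. Their genes went both ways. Chil3, most of the macrophage sum (35200 to 40200 and 27500 to 31300), and Fabp4 were higher. Siglecf (167 to 245 and 271 to 372), Ear1, Ear2 and Cidec were lower without overlap. S100a8 (35.2 to 125 and 10.9 to 11.2) and S100a9 were higher, while Csf3r (16 to 41.5 and 52.6 to 63.7) and Cxcr2 were lower. The part of these markers in the levels of Fos and Fosb was not tested. Egr1 had the opposite sign and did not pass, at 42.3 ± 50.9 CPM at 12 weeks and 11.3 ± 3.5 at 4 weeks (log2 1.90, SE 1.2, adjusted p 0.36 in edgeR), and its log2 difference was 0.19 without knockout CD11b-low replicate 3 of 12 weeks.

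Fos, Fosb and Atf3 had all 3 libraries of 12 weeks below all 3 of 4 weeks in the knockout, 3 of 9 genes where 19.6% of tested genes did so. Rhob had all 3 above, by a margin smaller than 0.01 CPM, where 19% of tested genes did so. Its log2 difference was 0.50 (SE 0.238, 95% interval -0.0049 to 0.997, adjusted p 0.205 in edgeR), and the difference between the genotypes in this age effect is the interaction given above. The stress factor gene Ddit3 rose in the knockout as well, to 40.7 ± 16.9 from 13.6 ± 2.9 CPM (adjusted p 0.00942). Zfp36l2, an RNA-binding protein gene of the Zfp36 family, fell to 25.3 from 45.3 CPM, and the SRF coactivator gene Mkl1 fell to 13.6 from 25.3.

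The genes whose levels most resembled each of the 9 over the 15 libraries were sought among 6399 tested genes of at least 10 CPM on average, by Pearson's r of log2 levels, as a description across libraries that share groups and depth. For Fos the nearest was Zfp36, whose product destabilises AU-rich messages of the same response (r = 0.894, and 0.979 after centring on groups). Zfp36 was at 1159, 862 and 131 CPM in wild-type cells at 4 weeks and at 123, 327 and 1029 at 12 weeks, the same order of libraries as Fos. Mum1 (0.891) and Pik3r6 (0.889) followed. For Fosb they were Rab44 (0.909), Mapk8ip3 (0.886) and Dusp1 (0.852), a phosphatase that switches off MAP kinases and was at 135, 160 and 23.7 CPM in wild-type cells at 4 weeks.

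Jun was nearest to Ppp4c (0.866), Csrnp1 (0.844) and the cytokine gene Osm (0.835), and Junb to Csrnp1 (0.848), Dusp1 (0.837) and N4bp2l1 (0.834). Egr1 was nearest to Ctf2 (0.857), Tnf (0.793) and Camk1 (0.774). Tnf, the macrophage cytokine, was at 89.3 CPM in replicate 3 of wild-type cells at 12 weeks against 14.4 and 13.1 in the other 2, and at 103 against 29.7 and 24.6 in CD11b-low knockout cells of that age. Egr2 was nearest to Herpud1 (0.878), a gene of the endoplasmic reticulum stress response, Lyrm4 (0.861) and Erlin1 (0.859), and Ier2 to Scarb2 (0.876), Timm50 (0.86) and Bcl7b (0.852). Atf3 was nearest to Mdm2 (0.86), Rgcc (0.831) and Ier3 (0.823).

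Rhob was nearest to Smim8 (r = 0.962), Cetn3 (0.948), a centrosome gene, and Mgst1 (0.943), a membrane-bound glutathione transferase that detoxifies lipid peroxides. None of these 3 was an immediate early gene of the lists used here, which also held for the nearest genes of Egr1, Egr2 and Ier2. Mgst1 was at 2607, 2027 and 1649 CPM in wild-type cells at 12 weeks, at 830, 1006 and 723 in wild-type cells at 4 weeks, and at 741 to 1645 in the 9 knockout libraries. Its wild-type libraries of 12 weeks were thus the 3 highest, as for Rhob, with knockout replicate 1 of the CD11b-high cells at 1645 just below the lowest of them. Centred on groups, r was 0.823 for Smim8, 0.89 for Cetn3 and 0.768 for Mgst1.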

How the data were processed

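RNA was sequenced from 15 pools of sorted alveolar macrophages. The authors deposited raw counts per gene. Per the submitters' processing notes these came from STAR and featureCounts of Subread; versions, genome build and strand setting are not given in the sources used here. Of 40780 rows 270 repeated a gene and were removed. Counts were tested in R 4.3.3 with edgeR 4.0.16: filterByExpr (minimum count 10, total 15), TMM scaling, a robust quasi-likelihood fit of all 15 libraries with 1 coefficient per group and 10 residual degrees of freedom, two-sided tests, Benjamini-Hochberg adjustment over 13284 genes at 0.05. Levels are TMM-scaled CPM, marker sums CPM of library totals, and errors SD. DESeq2 1.42.0 and voom of limma 3.58.1 were alternatives. In data simulated for the genotype comparison of 12 weeks (12990 genes), 13% of 2-fold and 69% of 4-fold changes were recovered. The shares were 7% and 77% for genotype at 4 weeks (13016 genes), 7% and 62% between CD11b subsets (13036), 15% and 61% for CD11b-high against wild-type (13023), 9% and 70% for age in wild-type (13033), 13% and 59% for age in knockout (13007) and 1% and 47% for the interaction (13012).

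The 9 genes and all lists were chosen with earlier results of these data known. Named genes were the 9, up to 4 called genes per list and comparison, and the 3 most similar genes; 1 list is not reported here. For CD11b-high and CD11b-low knockout cells, same-numbered libraries deviated together from their group means over all tested genes (r = 0.533, 0.443 and 0.141). Their pairing rests on the data and not on the labels, with 0.1 as the minimum r, and is weak for replicate 3. CD11b-high replicate 2 had r = 0.105 with CD11b-low replicate 3, and CD11b-high replicate 3 had r = 0.0863 with CD11b-low replicate 2.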

Additional observations from a re-analysis of the deposited data

How the results depend on the processing

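The number of the 9 genes called was recomputed under each alternative. In knockout against wild-type CD11b-low cells of 12 weeks it was 1, and became 3 with no filter on low counts and 0 with only the groups compared in the fit. At 4 weeks (0), in the interaction (0) and between CD11b subsets (0) it became 1 with no filter. In CD11b-high knockout against wild-type cells it was 2, and became 1 with limma voom, 5 with no filter, 0 with only the groups compared and 1 with the replicate block. With age in the knockout it was 0, and became 1 with DESeq2, 3 with no filter and 2 with only the groups compared. With age in wild-type cells it stayed at 1. Leaving out 1 library gave 0 to 1 in the genotype comparison of 12 weeks and 0 to 2 in CD11b-high knockout against wild-type cells. A replicate block within the 12-week libraries, chosen after seeing the data, gave 3 and 5 in these comparisons; their same-numbered libraries did not all deviate together (r = 0.0658 to 0.447 and 0.0122 to 0.194), so the number was not taken as a pairing. The cause of these shifts was not tested. The replicate block over all 15 libraries changed no other of the 7 counts, and RLE scaling changed none.

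Genes called over the whole table shifted too. They went from 412 to 873 (DESeq2), 1090 (no filter) and 189 (own groups) in the genotype comparison of 12 weeks, from 13 to 22, 73 and 4 at 4 weeks, and from 92 to 265, 533 and 18 between CD11b subsets, with 165 by voom. With age in the knockout 915 became 1685, 1395 and 1646, and 2640 by voom. With age in wild-type cells 2282 became 3968 by voom and 1123 in own groups. In CD11b-high knockout against wild-type cells 1970 became 793 in own groups, and in the interaction 33 became 150 (DESeq2), 321 (no filter) and 66 (replicate block). Leaving out 1 library gave 230 to 426 in the genotype comparison of 12 weeks, 4 to 15 at 4 weeks, 2 to 247 between CD11b subsets, 952 to 2099 in CD11b-high knockout against wild-type cells, 1069 to 2528 and 235 to 1305 with age in wild-type and knockout cells, and 3 to 35 in the interaction. Of 63 pairs of gene and comparison 10 had an unadjusted p under 0.05. Of the other 53, 30 changed sign in at least 1 alternative and 7 were called in at least 1.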
